A study of Mus musculus with 4 samples.

Results

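Platelets are shed into the blood by megakaryocytes, which mature mainly in bone marrow and in mice also in spleen and lung. They carry no nucleus but keep RNA of the megakaryocyte, so their transcripts can be read in any tissue that contains blood. Platelets hold chemokines in alpha granules, stick to the damaged vessel wall through the GPIb-IX-V complex, and aggregate through the integrin alpha-IIb beta-3. In cancer they are known to bind to circulating tumor cells.

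The 9 genes described here are Pf4, Ppbp, Gp1ba, Gp1bb, Gp5, Gp9, Itga2b, Treml1 and Clec1b, taken by symbol from the 23282 rows of the deposited lung data. Each symbol matched 1 row. All 9 had a mean normalized read count of at least 4 over the libraries, as did 15164 rows in total, and comparisons with all genes refer to those 15164.

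Lung RNA of CDF1 mice was sequenced from the 3' ends of transcripts in 4 libraries, 1 for each group. In the group names E stands for treadmill exercise and T for tumor. E(-)T(-) mice neither ran nor received cells. E(+)T(-) mice ran at high intensity. E(-)T(+) mice received CT26 murine colorectal carcinoma cells through the tail vein and did not run, and E(+)T(+) mice received the cells and ran. The mice were males according to the methods, and each group held 10 mice. The labels give postnatal day 28 for all of them, but by the methods the mice had about that age when bought and were killed only at the end of the experiment, so the age of the sequenced lungs is uncertain. For muscle the study took 1 representative animal per group and describes the lung work as similar, without stating whether lung RNA was pooled. The tumor arises from cells of a cultured line that reach the lung by the blood. With 1 library per group there is no replicate check. No difference below was tested, and intervals cover counting error only.

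The libraries held 9354440 to 13368000 reads assigned to genes, and the limit that 3 reads set was 0.224 to 0.321 reads per 1000000. All 12 alveolar epithelium markers had reads in every library, with 11268 to 153668 reads of the surfactant gene Sftpc. The libraries differed widely in make-up. The share of reads taken by hemoglobin genes ran from 1.43% (E(-)T(+)) to 31.4% (E(+)T(+)). The E(+)T(-) library also held reads of genes that marked E(-)T(+). Another 9 genes reached 500 normalized counts in E(-)T(+) while the untreated library gave 0 reads of them. Each had reads in E(+)T(-), at a median of 1.47% of their E(-)T(+) level (range 0.642% to 2.18%).

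The platelet genes were lowest together in E(-)T(-) and highest together in E(+)T(+). The 9 genes had 3141 reads in E(-)T(-), or 241 in each 1000000 assigned reads (95% Wilson interval 233 to 250). In E(+)T(-) they had 5081 reads, or 398 per 1000000 (387 to 409). They took 6019 reads in E(-)T(+), 643 per 1000000 (627 to 660), and E(+)T(+) held 25746, 1926 per 1000000 (1903 to 1950). Pf4 alone sets the order of E(+)T(-) and E(-)T(+). Without it the other 8 genes took 147, 264, 188 and 1053 reads per 1000000 in the libraries as just listed, so that E(+)T(-) was second. Every one of the 9 had its highest value in E(+)T(+). The lowest value lay in E(-)T(-) for 7 genes and in E(-)T(+) for Ppbp and Clec1b. In bulk RNA more cells of a type and more RNA per cell cannot be told apart.

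**Figure D1:**
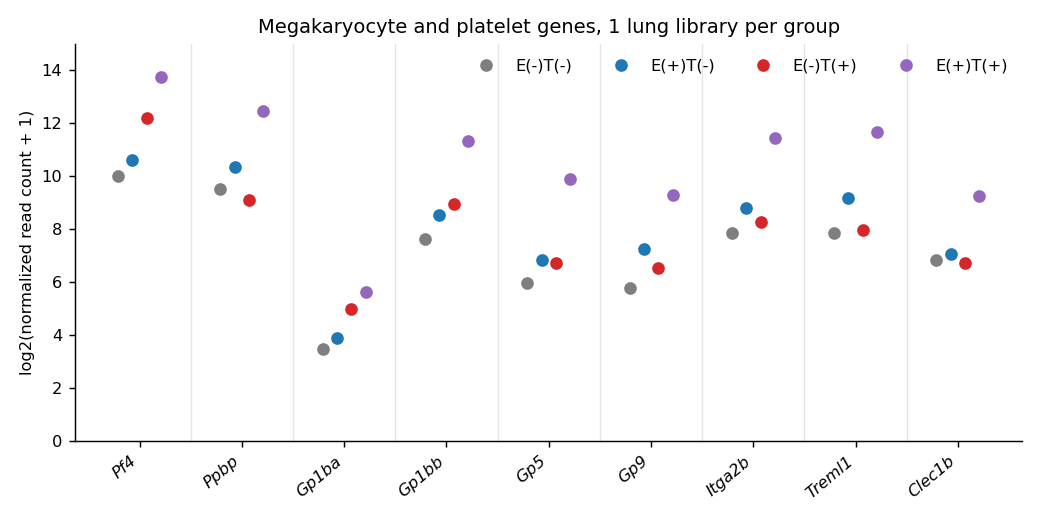
Deposited log2(normalized read count + 1) of the 9 megakaryocyte and platelet genes (x axis) in the 4 lung libraries, 1 point per library. The E(+)T(+) point is the highest for every gene, from 5.64 for Gp1ba to 13.74 for Pf4, and the E(-)T(+) point of Pf4 lies far above both tumor-free points while that of Ppbp lies below them.

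Pf4 and Ppbp encode the most abundant alpha granule chemokines, platelet factor 4 and pro-platelet basic protein. They had the highest levels of the 9 genes in each library. The kit reads 1 end per transcript, so that levels of different genes can be set side by side without division by length, although counting at a gene's 3' end can miss some transcripts. Values of 4 libraries follow the order E(-)T(-), then E(+)T(-), then E(-)T(+), then E(+)T(+) throughout. Pf4 had log2 values of 10.02, 10.61, 12.19 and 13.74. These rest on 1224, 1702, 4257 and 11670 reads. Both tumor libraries were thus above both tumor-free libraries. Ppbp had log2 values of 9.52, 10.34, 9.11 and 12.45, on 863, 1407, 504 and 4782 reads. Its E(-)T(+) value was the lowest of the 4.

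The pair are neighbours and lie on the plus strand of mouse chromosome 5. In the GENCODE annotation of mm10, Ppbp spans chr5:90768518-90770063 and Pf4 chr5:90772435-90773383, with 2371 bases between them. Another chemokine gene of the cluster, Cxcl5, lies 6893 bases from Ppbp. Its log2 values were 8.51, 9.38, 7.04 and 7.50, so that both tumor libraries were below both tumor-free libraries, the reverse of Pf4. The promoter windows of Pf4 and Ppbp are shown because these neighbours went different ways in E(-)T(+). They are the 250 bases before the RefSeq start site (GRCm38.p6), 5′ to 3′ on the gene's strand, and would carry in capitals any motif searched.
Pf4, chr5:90772185-90772434, plus strand: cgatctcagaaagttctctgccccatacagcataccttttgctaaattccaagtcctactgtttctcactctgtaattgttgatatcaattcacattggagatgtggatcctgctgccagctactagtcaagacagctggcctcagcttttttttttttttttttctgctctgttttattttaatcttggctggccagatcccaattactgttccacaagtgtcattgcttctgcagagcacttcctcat
Ppbp, chr5:90768268-90768517, plus strand: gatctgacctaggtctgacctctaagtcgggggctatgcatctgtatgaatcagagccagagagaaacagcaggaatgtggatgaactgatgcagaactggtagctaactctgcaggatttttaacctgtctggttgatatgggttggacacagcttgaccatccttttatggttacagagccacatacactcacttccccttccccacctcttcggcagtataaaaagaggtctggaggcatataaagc
Neither window held any of the 6 motifs searched on both strands. For GATA factors the letters AGATAA were searched, and likewise the variant TGATAA. For ETS factors the longer motif was ACCGGAAG, while the shorter one was CAGGAAG. The motif for NF-E2, which AP-1 factors share, was TGAGTCA, and that for RUNX factors was TGTGGT.

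The GPIb-IX-V complex, the receptor for von Willebrand factor, is built from the products of Gp1ba, Gp1bb, Gp9 and Gp5. Gp1ba encodes the chain that binds von Willebrand factor and was the lowest of the 9 genes everywhere. It had 12, 15, 28 and 42 reads, with log2 values of 3.47, 3.88, 4.99 and 5.64. Gp1bb, the beta chain linked to it, had log2 values of 7.62, 8.53, 8.94 and 11.33 on 231, 402, 447 and 2200 reads. Gp9, a small subunit needed for surface expression, had 5.77, 7.24, 6.54 and 9.28 on 63, 164, 84 and 532 reads. Gp5, the subunit cleaved by thrombin, had 5.98, 6.84, 6.73 and 9.90 on 73, 124, 96 and 817 reads. Each subunit was lowest in E(-)T(-) and highest in E(+)T(+). Gp9 and Gp5 were higher in E(+)T(-) than in E(-)T(+), and Gp1ba and Gp1bb the other way round.

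The genes of the complex are spread over 3 chromosomes. Gp1ba is at chr11:70639122-70642036 (plus strand) and Gp9 at chr6:87778072-87779768 (plus). Gp1bb is at chr16:18620317-18622403 and Gp5 at chr16:30307685-30310779, both on the minus strand. Gp1ba and Gp5 are shown because their windows held pairs of GATA motifs, printed in capitals with the other motifs found.
Gp1ba, chr11:70638872-70639121, plus strand: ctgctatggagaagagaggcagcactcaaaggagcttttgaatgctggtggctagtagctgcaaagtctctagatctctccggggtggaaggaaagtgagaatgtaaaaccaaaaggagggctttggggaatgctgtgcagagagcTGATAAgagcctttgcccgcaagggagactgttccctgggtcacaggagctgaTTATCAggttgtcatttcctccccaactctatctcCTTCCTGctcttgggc
Gp5, chr16:30310782-30311031, minus strand: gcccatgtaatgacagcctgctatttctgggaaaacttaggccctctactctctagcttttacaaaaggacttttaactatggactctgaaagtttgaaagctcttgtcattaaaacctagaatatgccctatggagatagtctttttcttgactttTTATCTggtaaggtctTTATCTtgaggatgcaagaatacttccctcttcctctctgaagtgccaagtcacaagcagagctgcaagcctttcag
The Gp1ba window held TGATAA on the gene's strand at -104 to -99 and on the other strand at -51 to -46, and CAGGAAG on the other strand at -16 to -10 (counted from the RefSeq start site). The RefSeq start of Gp5 lies just outside its GENCODE span, and positions are counted from the former. The Gp5 window held AGATAA on the other strand at -93 to -88 and at -77 to -72. One of these GATA motifs was present for 3 of the 9 genes (Gp1ba, Gp5 and Clec1b), and for 16.6% of all 32851 promoter windows of this length. The CAGGAAG motif was found for 1 gene, against 10.8% of all windows, and TGTGGT also for 1, Gp9, against 14%. ACCGGAAG and TGAGTCA were in none of the 9 windows and in 1.72% and 4.46% of all. A match of letters is a description and not a binding site.

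Itga2b encodes integrin alpha-IIb, which pairs with the product of Itgb3 to bind fibrinogen. It lies at chr11:102453297-102470122 on the minus strand. Its log2 values were 7.84, 8.81, 8.27 and 11.46, on 269, 489, 280 and 2401 reads. Treml1 encodes TLT-1, a receptor stored in alpha granules, and lies at chr17:48359916-48367176 on the plus strand. It had 7.87, 9.19, 7.97 and 11.67 on 274, 635, 228 and 2783 reads. Clec1b encodes CLEC-2, the receptor for podoplanin, and lies at chr6:129397297-129409335 on the plus strand. It had 6.82, 7.05, 6.72 and 9.25 on 132, 143, 95 and 519 reads. For Treml1 and Clec1b the 2 resting libraries differed little, and E(+)T(+) stood well above all others.

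The exercise effect without tumor sets E(+)T(-) against E(-)T(-) and asks what running changed in healthy lungs. All 9 genes were higher in E(+)T(-), with a median log2 difference of 0.87 against 0.00 for all genes. Gp9 rose by 1.48 (2.79-fold, from 63 to 164 reads) and Treml1 by 1.32 (2.50-fold, from 274 to 635 reads). These were the 2 of 9 past the study's limit of 2-fold, which 9.98% of all genes passed, 5.28% upward and 4.7% downward. The exact 95% counting interval was 1.07 to 1.94 for Gp9 and 1.12 to 1.54 for Treml1. The other 7 differed by 0.23 (Clec1b) to 0.97 (Itga2b). For 7 of the 9 genes the interval lay above 0. It included 0 for Gp1ba (-0.76 to 1.66) and for Clec1b (-0.12 to 0.58). With 1.47% of the E(-)T(+) level taken out of E(+)T(-), a step chosen after seeing the data, the median was 0.85.

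The tumor effect without exercise sets E(-)T(+) against E(-)T(-) and asks what the cancer changed in resting mice. Here the 9 genes did not move as one. The median log2 difference was 0.76, against -0.03 for all genes, with a range of -0.41 to 2.16. Pf4 rose 4.48-fold (log2 difference 2.16, exact interval 2.07 to 2.26), Gp1ba 2.85-fold (1.51, interval 0.57 to 2.70) and Gp1bb 2.49-fold (1.32, interval 1.09 to 1.56). These 3 of 9 were past 2-fold, at a background of 46.2% of all genes, 20.6% upward and 25.7% downward. Gp9 (0.78), Gp5 (0.76) and Itga2b (0.42) were higher within 2-fold, with intervals above 0. Treml1 (0.10, interval -0.16 to 0.36) and Clec1b (-0.11, interval -0.50 to 0.28) were within counting error of no difference. Ppbp was 1.33-fold lower (-0.41, interval -0.57 to -0.25).

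The proportions between platelet transcripts therefore differed in E(-)T(+). The ratio of Pf4 to Ppbp reads was 1.42, 1.21, 8.44 and 2.44. On the log2 scale the exact intervals were 0.38 to 0.63, 0.17 to 0.38, 2.95 to 3.21 and 1.24 to 1.34, and they did not overlap between E(-)T(+) and any other library. Pf4 made up 39.0%, 33.5%, 70.7% and 45.3% of the summed normalized counts of the 9 genes. Gp1bb against Treml1 showed a smaller excess in the same library, with read ratios of 0.843, 0.633, 1.96 and 0.791. Itga2b against Treml1 stayed closer, between 0.770 in E(+)T(-) and 1.23 in E(-)T(+). Itga2b against its partner Itgb3 had ratios of 1.44, 1.48, 1.16 and 1.13, the most even of the pairs plotted. Gp5 and Gp9 had ratios of 1.16, 0.756, 1.14 and 1.54. Proportions also differed between other libraries. Clec1b against Treml1 had ratios of 0.482, 0.225, 0.417 and 0.187, lower in both exercise libraries than in both resting libraries.

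**Figure D2:**
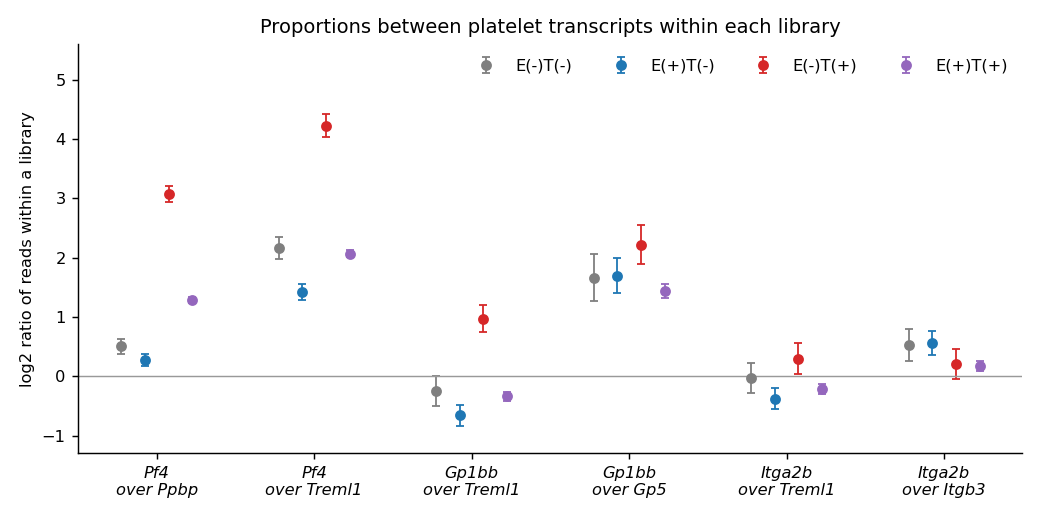
Log2 ratio of reads between pairs of platelet transcripts within each lung library (y axis), 1 point per library with the exact 95% counting interval as a bar. Pf4 over Ppbp reaches 3.08 in E(-)T(+) against 0.28 to 1.29 elsewhere, while Itga2b over Itgb3 stays between 0.18 and 0.56.

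Other cell types and neighbouring genes moved beside Pf4 and Gp1bb in E(-)T(+). Pf4 transcripts are also known from some tissue macrophages. All 12 macrophage markers had reads in every library, and their summed normalized count was 7383, 9055, 17790 and 20640. Lyve1, which lymphatic endothelium also expresses, turns that order, since without it the sum was 3474, 3324, 14710 and 8840, highest in E(-)T(+). In the tumor effect without exercise 7 of the 12 rose past 2-fold and none fell, with a median of 2.77. All genes passed upward in 20.6% and downward in 25.7%. The complement gene C1qa rose by 3.49 and the scavenger receptor gene Cd163 by 3.27. Inside 2-fold were Mrc1 (0.92), Cd68 (0.82), Csf1r (0.295), Lyve1 (-0.345) and Adgre1 (-0.93). With exercise added in tumor-bearing mice 6 of the 12 fell and 2 rose past 2-fold, beside 17.7% and 24.3% of all genes. The falls were -1.27 for C1qa and -1.68 for Cd163, while Pf4 was higher still. Lyve1 rose by 1.94 and Adgre1 by 1.46. The F13a1 gene for factor XIII, which platelets and macrophages are both known to express, had log2 values of 8.19, 8.37, 11.13 and 11.97, the same order as Pf4. The part of macrophages in the Pf4 difference was not tested.

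Gp1bb shares its strand and part of its span with Sept5 in the GENCODE annotation, and whether strand was used in counting is not given in the sources used here. Sept5 had 71, 137, 220 and 190 reads in the 4 libraries, and rose by 1.98 in the tumor effect without exercise, more than Gp1bb did. In the exercise effect with tumor it differed by -0.12 while Gp1bb rose by 2.39. The ratio of Gp1bb to Sept5 reads was 3.25, 2.93, 2.03 and 11.6. Clec1b overlaps Clec9a, a dendritic cell gene on the same strand, which had 334, 204, 31 and 92 reads and fell by 3.02 in the tumor effect without exercise. How reads were divided in these overlaps was not tested.

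The exercise effect with tumor sets E(+)T(+) against E(-)T(+) and asks what running changed in cancer-bearing mice. The platelet genes were higher by a median of 2.74, against 0.01 for all genes. Past 2-fold were 8 of the 9, all upward, where 42% of all genes passed, 24.3% upward and 17.7% downward. Treml1 rose most of the 9 (log2 difference 3.70, exact interval 3.51 to 3.90), and 242 of the 15164 genes rose more. Ppbp rose 10.1-fold (3.34, interval 3.21 to 3.48), Itga2b 9.12-fold (3.19, interval 3.01 to 3.38) and Gp5 8.99-fold (3.17, interval 2.88 to 3.50). Gp9 (2.74), Clec1b (2.53) and Gp1bb (2.39) followed. Pf4, already high in E(-)T(+), rose 2.92-fold (1.55, from 4257 to 11670 reads). Gp1ba differed by 0.66, with an interval of -0.05 to 1.42 on 28 and 42 reads. Scaled by library totals alone, the median of the 9 was 2.14 where that of all genes was -0.59, and Pf4, at 0.94, came inside 2-fold. All genes then passed upward in 16.4% and downward in 35.4%.

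The exercise effect was larger with tumor than without for 8 of the 9 genes under each scaling tried, and for Gp1ba it depended on the scaling. The difference between the effects was 2.52 for Ppbp, 2.38 for Treml1, 2.30 for both Clec1b and Gp5 and 2.22 for Itga2b. It was 1.48 for Gp1bb, 1.26 for Gp9, 0.96 for Pf4 and 0.25 for Gp1ba. Under library totals alone these differences were smaller. The effects with and without tumor were then 0.94 and 0.50 for Pf4, 2.14 and 1.39 for Gp9, and 1.78 and 0.82 for Gp1bb. For Gp1ba both counting intervals include 0, and under library totals alone its effect was 0.07 with tumor and 0.32 without. With 1 library per group these differences were not tested.

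The tumor effect with exercise sets E(+)T(+) against E(+)T(-) and asks what the cancer changed in mice that ran. All 9 genes rose past 2-fold, at a background of 27.8% of all genes, 14.9% upward and 13% downward. The median was 2.48, against 0.00 for all genes, and the range 1.76 to 3.13. Pf4 rose 8.72-fold (exact log2 interval 3.05 to 3.20), Gp5 8.32-fold (2.79 to 3.35) and Gp1bb 6.95-fold (2.65 to 2.96). Ppbp, which was lower with tumor in resting mice, rose 4.32-fold (2.03 to 2.20). Gp1ba rose 3.39-fold on 15 and 42 reads (0.95 to 2.79). Under library totals alone all 9 were still past 2-fold, with a median of 2.07 where all genes had -0.41, and 9.5% of all genes passed upward and 24.2% downward.

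In E(+)T(+) against the untreated E(-)T(-), the 9 genes all passed 2-fold and were 4.50-fold (Gp1ba) to 15.2-fold (Gp5) higher. The median log2 difference was 3.61, where all genes had -0.02, and 29.2% of all genes passed 2-fold, 14.8% upward and 14.4% downward. Library totals alone gave a median of 3.11 where all genes had -0.52, and 9.17% of all genes upward and 28.6% downward. Totals without hemoglobin genes gave 12.4% upward and 18.4% downward. These comparisons share libraries with one another and are not independent.

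**Figure D3:**
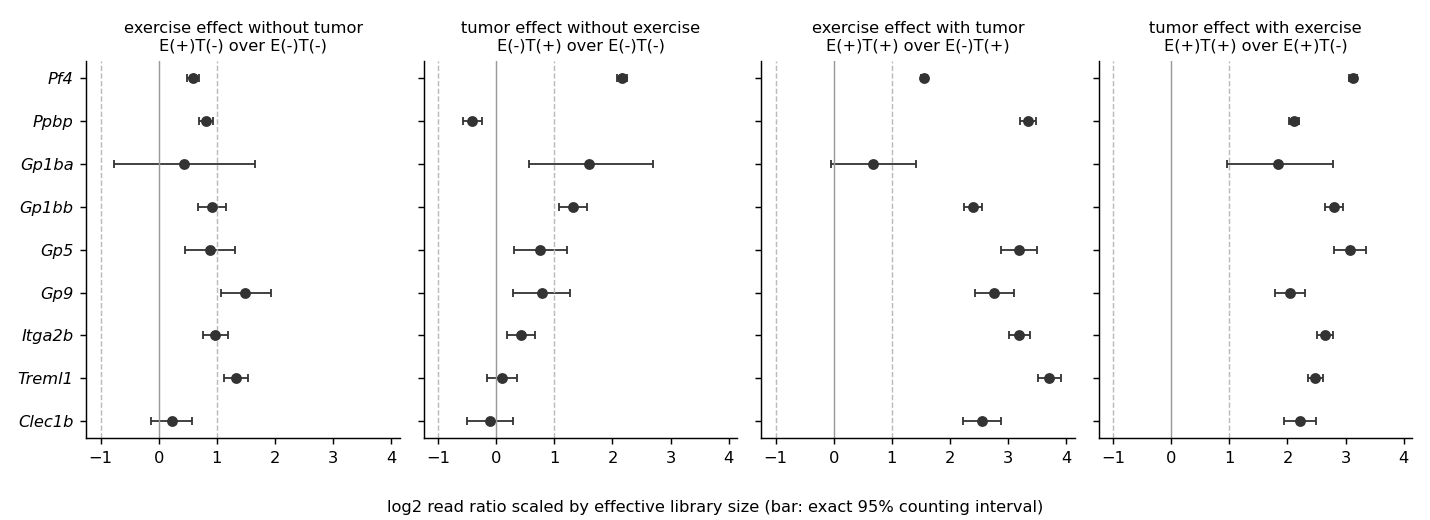
Log2 read ratio scaled by effective library size (x axis) for the 9 genes in 4 comparisons, 1 panel each, with the exact 95% counting interval as a bar and dashed lines at 2-fold. The points sit between 0.23 and 1.49 in the exercise effect without tumor, spread from -0.41 to 2.17 in the tumor effect without exercise, and all lie right of 0 in the panels that involve E(+)T(+).

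Other genes of platelets and megakaryocytes were read from 5 lists, chosen by role with earlier results of these data known. They hold 75 genes, of which 74 were past the filter. In the exercise effect with tumor 52 of the 74 rose past 2-fold and 2 fell (median 2.20), beside 24.3% of all genes upward and 17.7% downward. F2rl3 and Gfi1b pass the filter through E(+)T(+) alone, and without them 50 of 72 rose (median 2.07). In the exercise effect without tumor 10 rose and 2 fell (median 0.17), beside 5.28% and 4.7%, and 9 of the 72 rose. Of the same 74, 38 rose and 7 fell in the tumor effect with exercise (median 1.04), beside 14.9% and 13%, and 36 of the 72 rose (median 0.97). A further comparison, the tumor effect without exercise, had 11 rising and 28 falling (median -0.56), 10 of the 72 rising, beside 20.6% and 25.7%, where 3 of the 9 genes rose and none fell. In the counts of single lists, rose and fell mean past 2-fold, and the same shares of all genes apply.

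Of 12 adhesion and activating receptors, 10 rose past 2-fold in the exercise effect with tumor and none fell. Itgb3, the partner of Itga2b, had log2 values of 7.32, 8.25, 8.06 and 11.28 and rose by 3.22 (exact interval 3.04 to 3.43). G6b, which stood on this list although it is an inhibitory receptor of megakaryocytes, had 5.19, 6.55, 5.96 and 8.84 and rose by 2.88. Cd226 rose by 4.18, from 5 to 101 reads. In the tumor effect without exercise 2 of the 12 rose and 5 fell (median 0.10), beside 20.6% and 25.7% of all genes. Among those that fell were the junction genes Esam (-2.36) and F11r (-1.95), and Itgb3 differed by 0.74. The collagen receptor gene Gp6, named after its values were seen, had 2, 15, 3 and 50 reads.

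Of 10 agonist and inhibitory receptors, 6 rose in the exercise effect with tumor, or 5 of 9 without F2rl3. The ATP-gated channel gene P2rx1 had 28, 46, 12 and 248 reads and rose by 4.35 (interval 3.63 to 5.44). The thrombin receptor gene F2r, which many lung cells express, differed by 0.01 and the ADP receptor gene P2ry12 by 0.65. The platelet thrombin receptor genes F2rl2 and F2rl3, chosen after their values were seen, had 5, 9, 3 and 69 reads and 0, 0, 3 and 17 reads.

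Of 13 granule cargo and granule formation genes past the filter, 8 rose past 2-fold and none fell past it in the exercise effect with tumor. In the tumor effect without exercise 6 of them fell and 2 rose. Coagulation factor V (F5), which platelets store, had log2 values of 7.42, 8.80, 8.27 and 11.02. Von Willebrand factor (Vwf), which endothelium also makes, had 10.62, 10.32, 8.24 and 11.56, and fell by 2.39 in the tumor effect without exercise. All 10 endothelial markers fell in that comparison, with a median of -3.42, and all 10 rose in the exercise effect with tumor, with a median of 2.96. Their summed normalized count was 40640, 42020, 4262 and 31580, and all had reads in every library. The part of the endothelium in these lists was not tested. Pdgfb fell by 3.23 in the tumor effect without exercise and by 3.41 in the tumor effect with exercise.

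Of 24 signalling, cytoskeletal and eicosanoid genes, 19 rose in the exercise effect with tumor and 1 fell. The 12-lipoxygenase gene Alox12 rose by 3.79 (interval 3.49 to 4.14), and by 1.27 in the exercise effect without tumor. Tubb1, the beta-tubulin of platelet microtubules, had 14, 23, 16 and 150 reads. Bin2 rose by 1.31 without tumor and by 3.22 with tumor. Alox12 and Bin2 were the 2 that rose past 2-fold without tumor, where the other 22 stayed inside it (median of the 24, 0.21). Apbb1ip, which links Rap1 to talin, was the gene that fell in the exercise effect with tumor (-1.88). It had risen by 2.79 in the tumor effect without exercise. Both guanylate cyclase genes Gucy1a3 (-3.80) and Gucy1b3 (-3.72), also active in lung vessels, fell in that comparison. There 10 of the 24 fell and 2 rose (median -0.66).

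Of 15 genes of megakaryocyte development, 9 rose and 1 fell in the exercise effect with tumor, or 8 of 14 rose without Gfi1b, beside 24.3% of all genes. Gata1, a factor required by megakaryocytes and red cell precursors, had 1, 19, 15 and 163 reads. Its log2 read ratio had an interval of 1.71 to 9.74 in the exercise effect without tumor and of 2.77 to 4.41 with tumor. Nfe2, which drives platelet release, had 30, 64, 26 and 190 reads, and rose by 1.18 without tumor (interval 0.56 to 1.88) and by 2.91 with tumor (interval 2.37 to 3.61). Gfi1b (0, 3, 0 and 21 reads), named after its values were seen, was highest in E(+)T(+). Runx1, broadly expressed in blood cells, differed by 0.13 and Gata2 by -0.15. Meis1 fell by 4.96 in the tumor effect without exercise. In the tumor effect with exercise 5 of the 15 rose and 3 fell (median 0.45), beside 14.9% and 13% of all genes. E(+)T(+) against E(-)T(-) also gave 5 higher and 3 lower (median 0.23), beside 14.8% and 14.4%. Without Gfi1b, 4 of the 14 were higher in each of these. The list summed to 7590, 7251, 9874 and 7505 normalized counts, so that as a whole it was not highest in E(+)T(+).

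**Figure D4:**
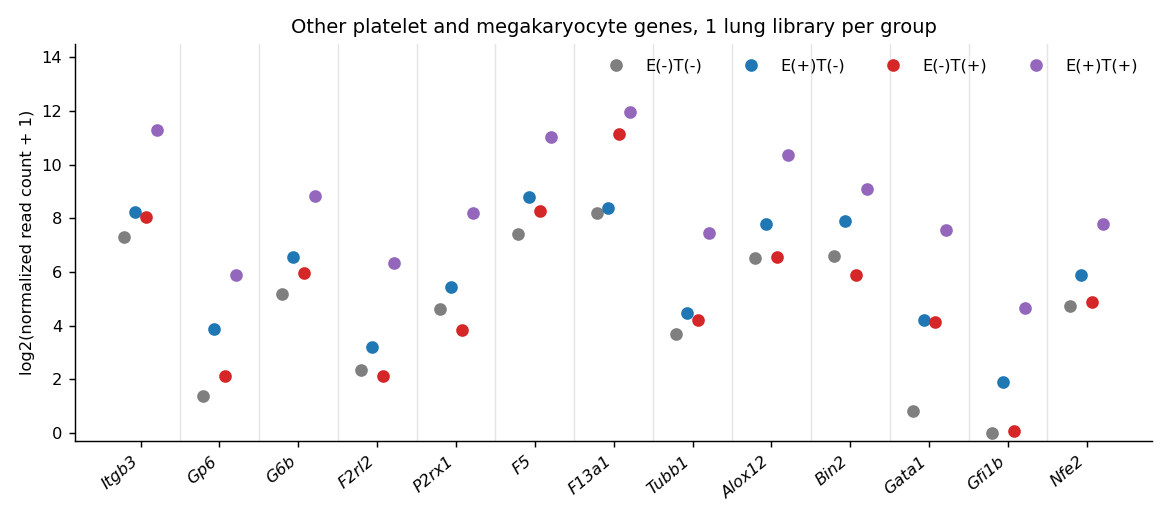
Deposited log2(normalized read count + 1) of 13 other platelet and megakaryocyte genes (x axis) in the 4 lung libraries, 1 point per library, the genes being picked after their values were seen. Each gene shown is highest in E(+)T(+), and F13a1 is the one with an E(-)T(+) point close to it (11.13 against 11.97).

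The genes most like the 9 were sought among all other rows past the filter by the root mean square difference of their centred log2 values from the median profile of the 9 over the 4 libraries. That profile was -1.31, -0.41, -0.67 and 2.10. Among the 9 genes Itga2b lay closest to it (0.17), and Gp1ba (0.77) and Pf4 (0.70) farthest. The 10 nearest other genes were Phyhip (0.16), Trpm2 (0.17), G6b (0.18), F5 (0.19), Nrip2 (0.20), Arid5a (0.21), Tubb1 (0.21), Ccno (0.22), Slc2a3 (0.22) and Chil3 (0.24). G6b, F5 and Tubb1 among them stood on the platelet lists. Chil3, a secreted protein of macrophages and neutrophils, had 1525, 1955, 1222 and 8431 reads, and the glucose transporter gene Slc2a3 had 75, 129, 93 and 824. Phyhip and Nrip2 rest on at most 13 reads per library and pass the filter through E(+)T(+) alone, so that their likeness to a profile highest there is partly fixed by the filter. With 4 points, how many genes would lie this close by chance was not tested.

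Genes beside the 9 on the chromosomes moved in both directions. The 16 protein-coding neighbours within 20000 bases that were past the filter gave -0.09 as their median in the exercise effect with tumor, with 4 higher and 2 lower past 2-fold, beside 24.3% and 17.7% of all genes. In the tumor effect with exercise their median was 0.01, with 3 higher and 3 lower, beside 14.9% and 13%. Clec12b (6, 0, 2 and 32 reads), counted as higher in both, passes the filter through E(+)T(+) alone. Trem2, a macrophage gene 5768 bases from Treml1, had 29, 34, 170 and 115 reads.

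Markers of other blood cells moved with the platelet genes in E(+)T(+). The summed normalized count of the 15 erythroid markers was 4928, 5179, 975 and 21050. Alas2 led it in every library, with 4733, 4574, 414 and 13536 reads. The 9 platelet genes summed to 2668, 4667, 6596 and 30100. In the exercise effect with tumor 14 of the 15 erythroid markers rose, with a median of 4.83. Epb4.2, Ermap, Klf1 and Rhag pass the filter through E(+)T(+) alone, their mean over the other libraries being under 4 normalized counts, and of the 11 left 10 rose. In the tumor effect without exercise 7 fell and 3 rose, while no platelet gene of the 9 fell past 2-fold. Rhag and Epb4.2 had 0 reads in both tumor-free libraries, Ank1 and Hemgn in E(-)T(-), Ermap in E(+)T(-), and Trim10, Ermap and Epb4.2 in E(-)T(+). A count of 0 allows up to the limit of 3 reads given above.

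The 12 neutrophil markers had reads in every library and summed to 4443, 12850, 12970 and 215100. S100a8 (1608, 4680, 3567 and 77269 reads) and S100a9 (2536, 7143, 3818 and 75783 reads) led this sum in every library. In the exercise effect without tumor 7 of the 12 rose past 2-fold and none fell, with a median of 1.54, and in the exercise effect with tumor 11 rose and Ltf fell by 1.40, with a median of 3.14. The alveolar epithelium list summed to 247900, 295400, 34990 and 194600. The 10 cell division genes summed to 360, 743, 10950 and 3531, the highest level being in E(-)T(+). The part of the amount of blood, of other blood cells and of tumor tissue in the platelet gene values was not tested.

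**Figure D5:**
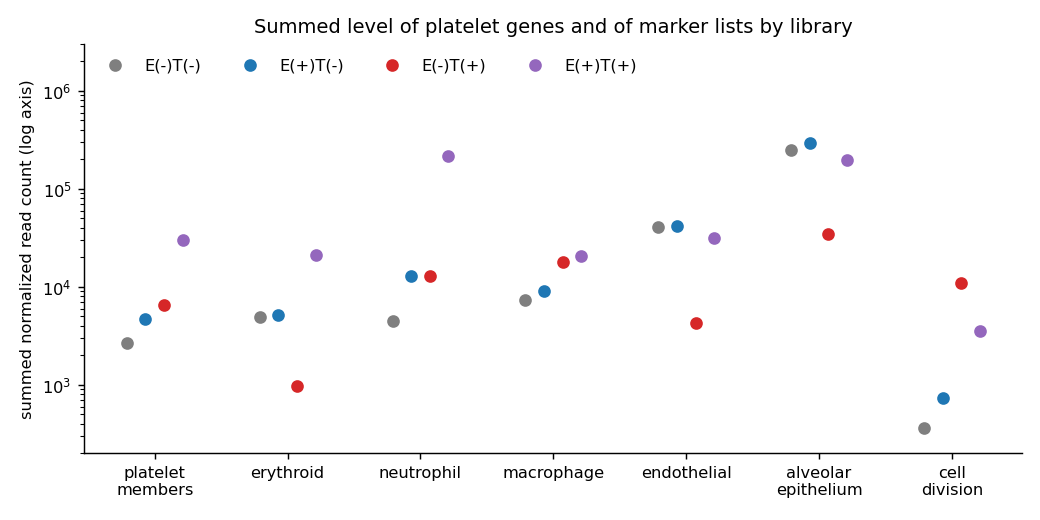
Summed normalized read count (y axis, log scale) of the 9 platelet genes and of 6 marker lists in the 4 lung libraries, 1 point per library. Platelet, erythroid and neutrophil sums are all highest in E(+)T(+), and in E(-)T(+) the erythroid sum is the lowest of its 4 points while the platelet sum is the second highest, a place it owes to Pf4 (1931 without it, against 3104 in E(+)T(-)).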

How the data were processed

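Lung RNA of 4 mouse groups was sequenced, 1 library each. According to the methods and the submitters' processing notes, the authors made 3' mRNA libraries (QuantSeq), aligned single-end reads with Bowtie2 to mm10, took read counts of genes from bedtools coverage, and normalized these by the quantile method of edgeR. Tool versions, the annotation and the use of strand are not given in the sources used here. The deposited values are log2(normalized count + 1) at 3 decimals, and differences are on that scale, which understates changes of low genes.

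Whole reads were recovered by inverting the quantile adjustment, with relative library sizes and 1 dispersion (0.372) fitted to 12 low patterns and refitted on 1500 rows. Put through the adjustment again, they returned 100% of the values within 0.001. High counts are approximate, since 3 decimals no longer separate neighbouring whole numbers there. The method was tested on simulated data. Read ratios carry exact (Clopper-Pearson) 95% intervals scaled by effective library sizes, and shares carry Wilson intervals. Neither covers PCR copies or differences between mice. Totals ranged from 9354440 to 13368000 reads.

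A gene was past the limit at 2-fold or more, as in the study. Rows below 4 normalized counts on average were left out. The members and lists were chosen with earlier results of these data known. From each list the text names up to 3 genes with the largest difference past 2-fold and up to 2 with the smallest, among genes that average 50 normalized counts or more, and any gene outside that rule was named after its values were seen. Some genes counted in a list are not reported by name here. Sequences are from RefSeq (GRCm38.p6) and gene positions from GENCODE vM21 (mm10); all 9 symbols were found in both, though start sites can differ by some bases, as for Gp5. Alternatives were other scalings, pseudocounts, filters and limits, and, chosen after seeing the data, the removal of the portion of E(-)T(+) seen in E(+)T(-), sums without their leading gene, and list counts without genes that pass the filter through E(+)T(+) alone. Python 3.11.15, numpy 2.4.6, scipy 1.17.1, pandas 2.3.3 and matplotlib 3.10.9 were used.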

Additional observations from a re-analysis of the deposited data

Results flagged for a closer look

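Ppbp and Clec1b stood out because their tumor effects pointed in opposite directions in resting and in running mice. Ppbp differed by -0.41 (log2) in the tumor effect without exercise and by 2.11 in the tumor effect with exercise, and both exact counting intervals excluded 0. Clec1b differed by -0.11 and by 2.20, and the interval of the former, -0.50 to 0.28, included 0. With 1 library per group the difference between the effects was not tested.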

How the results depend on the processing

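The median of the 9 genes kept its direction and its side of the 2-fold limit under every alternative run. It ranged from 0.78 to 0.89 in the exercise effect without tumor, from 0.59 to 0.86 in the tumor effect without exercise, from 2.14 to 2.95 for exercise with tumor present, and from 2.07 to 2.56 in the tumor effect with exercise. Together, exercise and tumor gave 3.11 to 3.66. Of 315 values of single members under an alternative, 314 kept their side of the limit. The exception was Pf4 in the exercise effect with tumor, at 0.94 under library totals alone, and Clec1b changed sign in the tumor effect without exercise, to 0.00, under the same scaling. A limit of 1.5-fold raised the members past it from 2 to 7 in the exercise effect without tumor and from 3 to 5 in the tumor effect without exercise. Among all 15164 genes that limit gave 3415 in the exercise effect without tumor, where 2-fold gave 1513. In the tumor effect without exercise it gave 9904, where 2-fold gave 7011. It gave 7403 in the tumor effect with exercise and 7647 for exercise and tumor together, where 2-fold gave 4223 and 4422. Without a filter 2606 genes passed 2-fold in the exercise effect without tumor. With the filter raised to 50 normalized counts, fewer genes were compared, and 323, 4551, 4061, 2255 and 2453 passed in the exercise effect without tumor, the tumor effect without exercise, the exercise effect with tumor, the tumor effect with exercise and both together. Depth limits Gp1ba most, at 12 to 42 reads. No paired analysis was possible because each group has 1 library.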

Other observations

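Some genes of immature granulocytes and of basophils, named after their values were seen, were also highest in E(+)T(+), while others of the same lists were not. Mpo, the myeloperoxidase gene, had 1, 3, 11 and 124 reads in the library order of the report, Elane 0, 0, 1 and 51, and Ms4a3 0, 0, 0 and 25. Elane and Ms4a3 pass the filter through E(+)T(+) alone. Of the other 6 markers of immature granulocytes and progenitors, 4 rose past 2-fold in the exercise effect with tumor and 1, Cd34, fell, beside 24.3% and 17.7% of all genes. Kit was highest in E(-)T(-), with 786 reads against 207 in E(+)T(+), and the sum of the list, led by Cd34, was 2216, 2443, 8006 and 3119, highest in E(-)T(+). The basophil protease gene Mcpt8 had 0, 1, 0 and 60 reads, and it too passes the filter through E(+)T(+) alone. Of the other 5 mast cell and basophil genes past the filter, 4 rose in that comparison. Cma1 of that list was highest in E(-)T(-), with 39 reads against 17. Mpo, Elane, Ms4a3 and Mcpt8 mark cells that, like megakaryocytes, are formed mainly in bone marrow. Any part of the bone marrow in the platelet gene values was not tested.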
